A study of Mus musculus with 6 samples.

Results

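The enzymes that make serine, pass its carbon to folate and make asparagine were described here by 10 genes, namely Phgdh, Psat1, Psph, Shmt1, Shmt2, Mthfd1, Mthfd2, Mthfd1l, Aldh1l2 and Asns. They were taken by symbol from a table of 27179 genes, and all 10 were found. RNA was sequenced from B16F10, an established mouse melanoma line labelled as wild type, after 6 h with 0.01% OZO, olive oil that had been ozonated, in 3 libraries, or with 0.01% of its precursor OLO, plain olive oil, in 3 libraries. Untreated cells were not analysed here. It is a single line. The study describes its B16F10 transcriptome values as coming from independent experiments, and the labels themselves say nothing on separate cultures.

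Each gene carries 1 level here, the authors' mean over the 6 libraries of log2 CPM, which sets counts relative to library size. OZO-treated and OLO-treated cells enter that mean together. The fold changes and p-values of the same table are the authors' own comparison of OZO with OLO and were not used, and no library was analysed by itself. The levels below therefore describe B16F10 cells under both oils at once, and no difference between the treatments, no spread between libraries and no test is given. Whether any 2 neighbouring levels differ beyond the spread between libraries was not tested.

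Cells make serine from a glycolytic intermediate in 3 steps, catalysed by the products of Phgdh, Psat1 and Psph. Serine hydroxymethyltransferases then move a carbon from serine to tetrahydrofolate and leave glycine. The carbon passes between methylene-, methenyl- and formyl-folate, by one set of enzymes in mitochondria and by another in the cytosol. It serves the synthesis of purines, thymidylate and methionine. Asparagine synthetase makes asparagine from aspartate and glutamine. Several of these genes are known targets of ATF4, the transcription factor that rises when amino acids run short.

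The level shared by genes without reads placed the scaled library size, as a geometric mean over the 6 libraries, at 19641945 counts, so that 1 CPM stood for 19.6 counts per library. The totals of single libraries are unknown. No reads were counted for 6025 of the 27179 genes, and 11878 genes reached 1 CPM. Melanocyte markers fitted the labelled cell type, with 9 of 10 at 1 CPM or more and a summed level of 17728 CPM, led by Dct, an enzyme of melanin synthesis, at 7052 CPM. Oca2, a melanosome transporter, was the marker under 1 CPM, at 0.924 CPM. Of 5 keratinocyte markers none reached 1 CPM and Krt5 had no reads. With the 0.5 reads added by voom taken off, summed levels were 0.0513 CPM for keratinocyte markers, 6.37 CPM for 5 fibroblast markers, 7.29 CPM for 5 immune markers and 1.7 CPM for 4 endothelial markers. At 1 CPM or more were 3 of the fibroblast markers (Pdgfra, Col1a1 and Col1a2, at most 3.28 CPM), 2 of the immune markers (Cd68 at 5.47 and Lyz2 at 1.78 CPM) and 1 of the endothelial markers (Pecam1 at 1.21 CPM), whereas Col3a1, Ptprc, Cd3e and Kdr were under 0.1 CPM. The part of such cells in the levels of the 10 enzymes was not tested.

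All 10 genes were expressed well above the detection limit. Counting precision was high for every one of them. The lowest, Shmt1, rested on a geometric mean of reads plus 0.5, the amount added by voom, of 560 per library, and the highest, Mthfd2, on 8273. Because an arithmetic mean is never below a geometric one, at least 3357 counts of Shmt1 and at least 49637 counts of Mthfd2 were collected over the 6 libraries. Since long transcripts yield more fragments, genes were compared as CPM per kb, with the longest coding transcript of GENCODE M21 as the length. A length was found for all 10 genes and for 23882 genes of the table, whose median was 0.303 CPM per kb. The 10 genes had a median of 65.7 CPM per kb and ranged 20.3-fold, from 9.97 for Shmt1 to 202 for Mthfd2. Of the 10, 7 lay in the upper 10% of genes with a length, which began at 31.3 CPM per kb. Among genes of at least 1 CPM, 20.8% lay there.

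**Figure D1:**
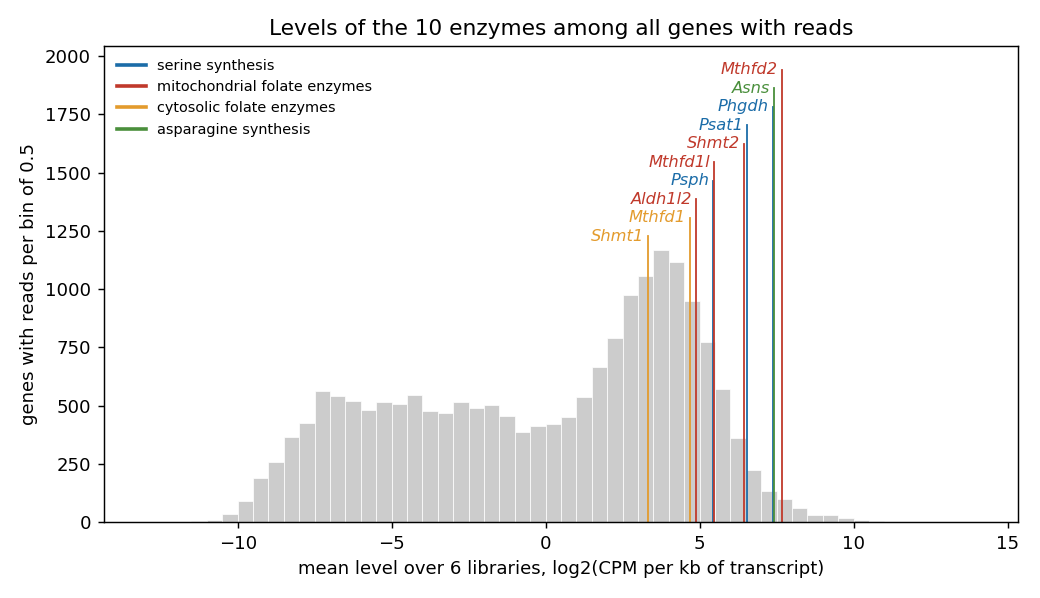
Grey bars count genes with reads in bins of 0.5 along the mean level over 6 libraries, as log2 of CPM per kb of the longest coding transcript, and coloured lines mark the 10 enzymes. The lines run from Shmt1 at 9.97 CPM per kb to Mthfd2 at 202 CPM per kb, and 7 of the 10 lie in the upper 10% of genes with a length.

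Per kb of transcript, the 3 serine synthesis enzymes were ordered from the first step, with the highest level, to the last. Phgdh encodes phosphoglycerate dehydrogenase, which commits 3-phosphoglycerate to serine, and lies on chromosome 3 of mm10 from 98313170 to 98339990. Its mean level was 8.29 log2 CPM, or 313 CPM, and 165 CPM per kb, above 98.8% of genes with a length. Psat1, the phosphoserine aminotransferase of the next step, lies on chromosome 19 from 15904678 to 15947337. It averaged 7.94 log2 CPM, or 245 CPM, which came to 93.8 CPM per kb over a transcript of 2617 bases. Psph, the phosphatase that releases serine, lies on chromosome 5 from 129765558 to 129787449, and its level was 6.22 log2 CPM, or 74.3 CPM. Per length Psph stood at 42.9 CPM per kb, so that Phgdh was 3.85-fold higher than Psph and 1.76-fold higher than Psat1. The order of Phgdh and Psat1 depended on the length, since Psat1 has a coding part of only 1110 bases. Per kb of coding length Psat1 had 221 CPM and Phgdh 196. Phgdh stayed above Psph under each length, but the distance varied, with 196 against 110 CPM per kb of coding length and 126 against 17.2 over the bases of all annotated exons.

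Mitochondrial enzymes of folate carbon transfer held both the highest level of the 10 genes and several of the middle ones. Shmt2, the mitochondrial serine hydroxymethyltransferase, lies on chromosome 10 from 127517123 to 127522444. Its mean level was 7.64 log2 CPM, or 200 CPM, and 87.3 CPM per kb. Mthfd2, on chromosome 6 from 83305691 to 83325908, encodes the mitochondrial enzyme that takes methylene-tetrahydrofolate to the methenyl form and on to the formyl form. It averaged 8.72 log2 CPM, or 421 CPM, and its 202 CPM per kb were above 99.1% of genes with a length. Mthfd1l, on chromosome 10 from 3973118 to 4167081, encodes the mitochondrial synthetase that turns formyl-tetrahydrofolate into formate for export. Its level was 7.35 log2 CPM, or 163 CPM, and 44.1 CPM per kb, so that Mthfd2 was 4.58-fold higher per length than the enzyme that follows it, 7.23-fold with coding lengths and 3.29-fold with the bases of all annotated exons. Aldh1l2, the mitochondrial formyl-tetrahydrofolate dehydrogenase, which releases the carbon as CO2 and yields NADPH, lies on chromosome 10 from 83487450 to 83534140. It averaged 7.47 log2 CPM, or 177 CPM, but its transcript of 6027 bases was the longest of the 10, and the level per length was 29.3 CPM per kb.

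Cytosolic partners were lower than the mitochondrial enzymes in each pair. Shmt1, the cytosolic serine hydroxymethyltransferase, lies on chromosome 11 from 60788104 to 60811718 and averaged 4.83 log2 CPM, or 28.5 CPM. At 9.97 CPM per kb it was the lowest of the 10 genes and the only one under the median of genes of at least 1 CPM, of which 48.4% were lower. Shmt2 was 8.76-fold higher per length. Mthfd1, on chromosome 12 from 76255298 to 76319803, encodes a single cytosolic protein with the dehydrogenase, cyclohydrolase and synthetase activities that mitochondria divide between Mthfd2 and Mthfd1l. Its mean level was 6.38 log2 CPM, or 83.1 CPM, and 25.6 CPM per kb. Per length Mthfd2 was 7.88-fold higher than Mthfd1, 13.5-fold with coding lengths and 6.46-fold with the bases of all annotated exons, whereas Mthfd1l was 1.72-fold higher. Aldh1l1, the cytosolic counterpart of Aldh1l2 and not among the 10 genes, averaged 8.51 CPM and 2.03 CPM per kb, and Aldh1l2 was 14.4-fold higher per length. Summed over the 4 mitochondrial enzymes the level was 363 CPM per kb, against 37.6 for Shmt1, Mthfd1 and Aldh1l1, a ratio of 9.64. Mthfd2 alone gave 202 of the 363, and Mthfd1 stands here against both Mthfd2 and Mthfd1l. The ratio was 12.4 with coding lengths and 8.79 with the bases of all annotated exons, and the mitochondrial enzyme stayed higher in every one of these pairs under all 3 lengths. These are ratios of transcript levels across genes, and they carry no error between libraries.

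Mthfd2l, a further mitochondrial dehydrogenase and cyclohydrolase, was low beside Mthfd2. It averaged 1.11 CPM, a geometric mean of reads plus 0.5 of 21.7 per library, and 0.5 CPM per kb. Mthfd2 was 404-fold higher per length, 377-fold with coding lengths and 743-fold with the bases of all annotated exons.

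Asns encodes asparagine synthetase and lies on chromosome 6 from 7675169 to 7693254, 75.6 Mb from Mthfd2. Its mean level was 8.42 log2 CPM, or 342 CPM, and 169 CPM per kb, above 98.8% of genes with a length. Per length Asns and Phgdh were 1.03-fold apart, and their order turned when the bases of all exons were used. Of the genes around the asparagine step, Nars1, the asparaginyl-tRNA synthetase once named Nars, averaged 204 CPM per kb. The 2 asparaginases Aspg and Asrgl1 averaged 0.851 and 4.14 CPM per kb.

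The transcript start of Asns is shown together with those of Phgdh and Mthfd2. These 3 genes had the highest levels per kb of transcript, though Psat1 passed Asns and Phgdh per kb of coding length. Asns also holds the element through which ATF4 is known to act on it. Sequences are the 100 bases before a RefSeq transcript start in GRCm38.p6, read 5′ to 3′ along the gene, with capitals marking the matches to any of the motifs described below.

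Asns (chr6:7693210-7693309, minus strand): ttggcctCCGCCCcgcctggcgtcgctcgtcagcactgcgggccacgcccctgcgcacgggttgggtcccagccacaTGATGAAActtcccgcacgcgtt

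Phgdh (chr3:98339970-98340069, minus strand): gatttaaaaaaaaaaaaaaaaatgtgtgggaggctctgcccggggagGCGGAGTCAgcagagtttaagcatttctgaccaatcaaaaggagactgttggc

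Mthfd2 (chr6:83317605-83317704, minus strand): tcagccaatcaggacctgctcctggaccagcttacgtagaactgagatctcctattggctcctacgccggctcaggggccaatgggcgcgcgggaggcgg

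Windows from 250 bases before to 50 bases after an annotated start were found for 9 of the 10 genes, as 10 windows of 300 bases, with a pair of starts for Psat1. Aldh1l2 had no window and was not searched for motifs. The letters TGATGNAA, the core of the element bound by ATF4 with C/EBP partners, were searched on both strands. Asns was the only one of the 9 genes with a match, TGATGAAA, whose first base lies 23 bases before the start. These letters stood in 3.97% of all 32851 windows and in 2.26% of the 12021 windows of genes of at least 1 CPM. TGACNNNGC, the core of the element bound by NRF2, stood in windows of 3 genes, on the strand opposite to the gene. It began 53 bases before the start of Phgdh and 172 before that of Asns, and lay past the start in Psph. Among all windows 12.4% held it, and among those of genes of at least 1 CPM 14.2%. CACGTG, an E-box, was in none of the 10 windows, against 7.15% of all windows and 10.1% of those of genes of at least 1 CPM. GGGCGG, the GC box, was in windows of 6 genes, namely Psph, Asns, Mthfd1l, Shmt1, Mthfd1 and Psat1, against 35.7% of all windows and 63.2% of those of genes of at least 1 CPM. The Mthfd2 window held none of the 4 motifs. A match describes letters in a short window, and these windows leave out introns and more distant sequence. The RefSeq starts used for Mthfd2 and Psat1 lie well inside the gene spans given above. Their windows therefore do not describe the outer 5′ ends of those spans.

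GC content of the 10 windows ranged from 42.7% for Shmt2 to 66.7% for the second start of Psat1, with a median of 59.7%. The median was 61% for windows of genes of at least 1 CPM and 52.7% for all windows.

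How the 10 genes ranked depended in part on the length. With the transcript length, the coding length and the bases of all annotated exons, 35 of the 45 pairs of genes kept their order and 10 turned. Shmt1 was lowest under all 3 lengths, and the range from highest to lowest was 20.3-fold, 20.2-fold and 17.2-fold. Pairs that turned were Mthfd2 with Asns and with Phgdh, Asns with Phgdh, Psat1 with Asns, Phgdh and Shmt2, Aldh1l2 with Mthfd1l, and Psph with Aldh1l2, Mthfd1l and Mthfd1. As a fold, Psph moved most, from 17.2 CPM per kb over all exons to 110 per kb of coding length. Its coding part has 675 bases and its annotated exons 4329. Mthfd2 stood at 121 CPM per kb over all exons, just under Phgdh at 126 and Asns at 125, and at 401 per kb of coding length.

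**Figure D2:**
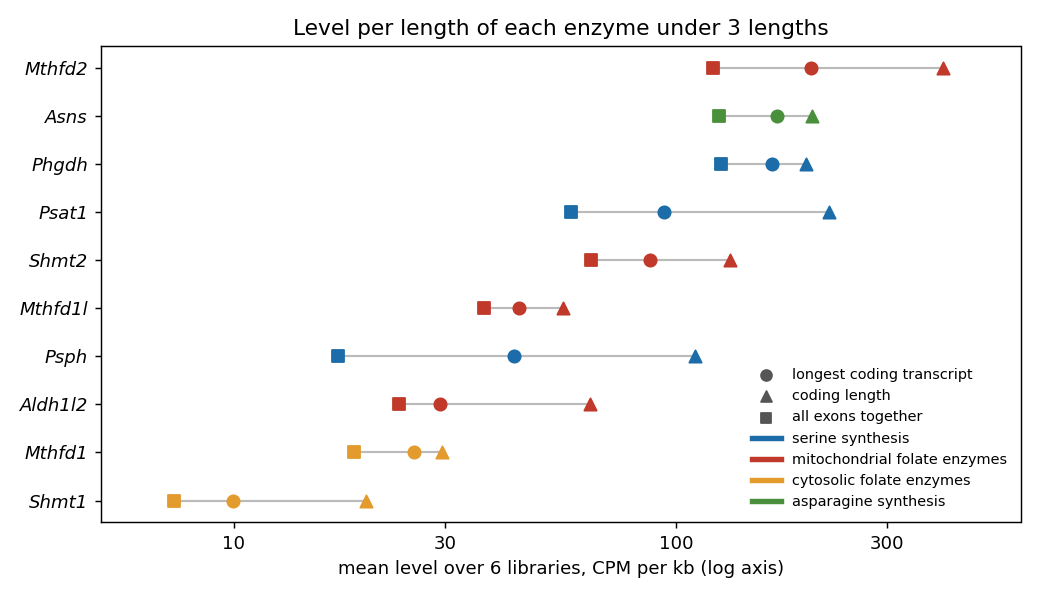
Each row is 1 enzyme and the log axis gives its mean level over 6 libraries in CPM per kb, with circles for the longest coding transcript, triangles for the coding length and squares for the bases of all annotated exons. Shmt1 lies lowest for all 3 lengths, from 7.33 to 19.9 CPM per kb, and Psph spans the widest range on the log axis, from 17.2 to 110 CPM per kb.

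The other genes of folate carbon transfer had a lower median than the 10 enzymes. Of 24 such genes 21 reached 1 CPM, their median was 6.44 CPM per kb, and 5 of them (20.8%) lay in the upper 10% of genes with a length, against 7 of the 10 enzymes. The mitochondrial glycine cleavage system, which also feeds carbon to folate, was uneven. Its shared subunit Dld averaged 132 CPM per kb and Gcsh 35.9, whereas Amt averaged 2.73 and the decarboxylase Gldc 0.0294 CPM per kb, a geometric mean of reads plus 0.5 of 2.68 per library. Sfxn1, a mitochondrial serine carrier, averaged 42.3 CPM per kb, and Slc25a32, which carries folate into mitochondria, 6.18. Of the enzymes that use the carbon, Atic and Gart of purine synthesis averaged 60.1 and 32.3 CPM per kb, both in the upper 10%, and Tyms, the thymidylate synthase, averaged 24 CPM per kb, above 87.1% of genes with a length. Folr1, a folate receptor, and Ftcd, an enzyme of histidine breakdown, were under 0.1 CPM, each with a geometric mean of reads plus 0.5 under 2 per library.

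Genes of serine, glycine and asparagine handling outside the 10 had a median of 21 CPM per kb over 19 genes, of which 17 reached 1 CPM and 7 (36.8%) lay in the upper 10%. Slc38a2, a transporter of small neutral amino acids, was the highest at 297 CPM per kb, and Slc38a1 had 97.6. The serine carriers Slc1a4 and Slc1a5 averaged 37.9 and 26.8 CPM per kb. Sds and Sdsl, which break down serine, averaged 1.32 and 2.02 CPM per kb, and Gnmt, which methylates glycine, 0.599. Cbs, which joins serine to homocysteine, averaged 0.15 CPM per kb and Cth, the next enzyme towards cysteine, 12.3. The 8 amino acid stress genes had a median of 51.2 CPM per kb and 5 of them (62.5%) lay in the upper 10%, with Atf4 at 209, Ddit3 at 253 and Sesn2 lowest at 18.3 CPM per kb.

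**Figure D3:**
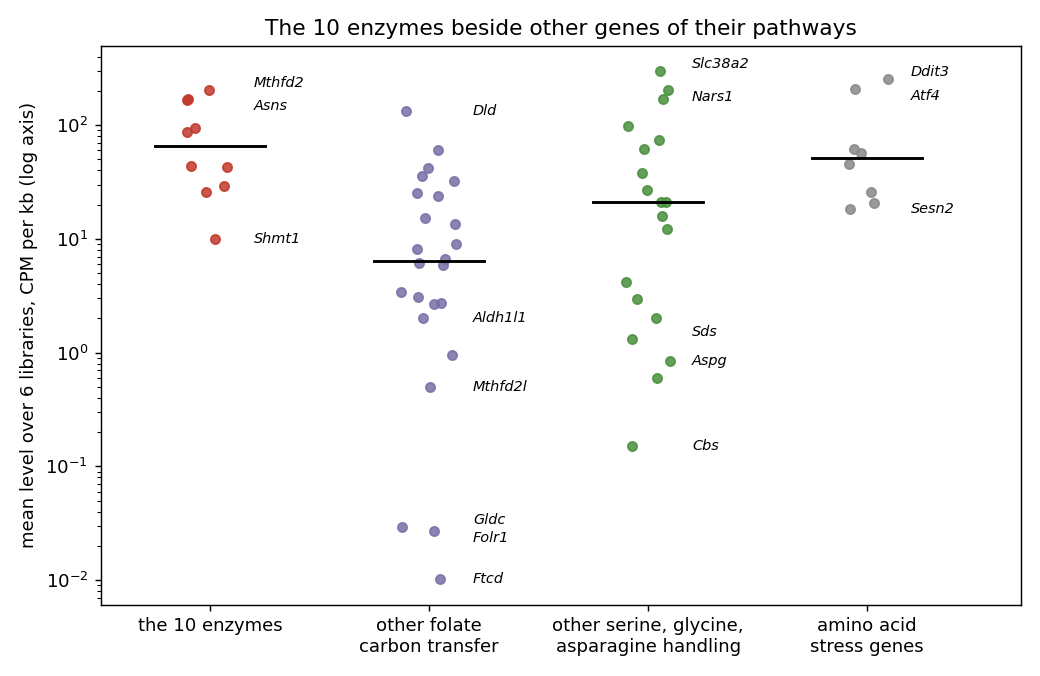
Points give the mean level over 6 libraries in CPM per kb of the longest coding transcript, on a log axis, for the 10 enzymes, 24 other folate genes, 19 other genes of serine, glycine and asparagine handling and 8 amino acid stress genes, with black lines at the medians. The 10 enzymes span 9.97 to 202 CPM per kb, while the folate genes reach down to Ftcd at 0.0102 CPM per kb.

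Some of the levels could include or lose reads of other loci. Phgdh has 21 other annotated loci with a match of at least 100 bases at 90% identity or more, of which 17 are processed pseudogenes and the closest is 98.7% identical. One of them, Gm8096, had a level in the table, -4.5 log2 CPM. Psat1 and Shmt2 each have 1 such pseudogene, of 91% and 90.1% identity, and the 10 enzymes had no such match to each other. How reads that fit several loci were treated is not given in the sources used here, so the level of Phgdh is the least certain of the 10 in this respect. Exons of 5 of the 10 genes overlap exons of a gene on the opposite strand. The overlap covers 14.1% of the exon bases of Aldh1l2 (D10Wsu102e, 5.83 log2 CPM), 10.4% of Psph (Cct6a, 8.57 log2 CPM) and 4.74% of Shmt1 (Smcr8, 7.08 log2 CPM). It is 1.03% for Shmt2 with Ndufa4l2 and 0.833% for Mthfd1 with Gm47525. The libraries were made with a kit that keeps strand, but whether counting used it is not given in the sources used here, and the part of the overlapping genes in these levels was not tested.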

How the data were processed

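RNA of B16F10 cells treated with OZO or OLO was sequenced in 6 libraries. Per the labels and the methods, the authors made directional libraries, aligned reads to mm10 with HISAT2 (2.1.0), counted them per gene with featureCounts (2.1.1) and ran limma-voom (3.58.1). The deposited log2 values used here are the authors' mean log2 CPM over all 6 libraries, with 0.5 reads added to each count. The table otherwise holds the log2 fold change, moderated statistic, p-value, adjusted p-value and log odds of the authors' comparison of OZO with OLO, which were not used. No library was analysed by itself, so the planned tests for counts or normalized values per library were not run. The annotation release and the strand setting of counting are not given in the sources used here.

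From the level shared by genes without reads, the geometric mean of the library sizes was solved by the formula of voom, and the 0.5 reads were taken off before levels were divided by length or summed over markers. Other CPM values of single genes keep them. Precision covers counting error only. CPM were divided by the length of the longest coding transcript in GENCODE M21 (GRCm38, as mm10), matched by Ensembl identifier. Alternatives were the coding length, the 0.5 reads kept, and ranks among genes with reads or of at least 1 CPM. The bases of all exons were added after seeing the data. Near copies were sought with BLAST+ 2.17.0 among GENCODE M21 transcripts, and promoter windows came from RefSeq (GRCm38.p6). Library size, genes without reads and CPM levels were recovered from simulated counts, with no spread between libraries beyond size and counting error. Recovery of the library size follows from the formula itself. Levels per length and ranks were not part of that check. The genes named were the 10 enzymes and, where a sentence on them turned on it, genes of fixed pathway and marker lists. Members and lists were chosen with earlier results of these data known. Python 3.11.15, numpy 2.4.6 and pandas 2.3.3 were used.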

Additional observations from a re-analysis of the deposited data

How the results depend on the processing

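No paired analysis was possible because the table was used only as 1 mean over the 6 libraries, with no value for a library by itself. No test between the treatments was made, so the alternatives planned for one (another test or normalization, no filter on low values, another pseudocount, leaving out each library) were not run. Every ratio of a mitochondrial enzyme to its cytosolic partner kept its direction. Per kb of coding length the log2 ratio was 2.73 for Shmt2 over Shmt1, 3.76 for Mthfd2 over Mthfd1, 0.91 for Mthfd1l over Mthfd1 and 4.35 for Aldh1l2 over Aldh1l1, in place of 3.13, 2.98, 0.78 and 3.85. With the bases of all exons, a length added after seeing the data, these ratios were 3.13, 2.69, 0.97 and 3.65, and keeping the 0.5 reads left them as they were to 2 decimals. The median level of the 10 genes was 65.7 CPM per kb of transcript, 121 per kb of coding length and 47.2 per kb of all exons. The median share of genes below an enzyme was 95.3% of genes with a length, 94.2% of those with reads and 90.2% of those of at least 1 CPM, because fewer low genes remain in the smaller sets. Depth does not limit the 10 levels, but those of Gldc, Folr1 and Ftcd rest on few reads, with geometric means of reads plus 0.5 of 2.68, 1.2 and 0.886 per library.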
